A study of Mus musculus with 8 samples.

Results

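The genes described here are 110 of the 24651 genes counted in mouse testes. They were chosen by name: every gene whose symbol begins with *Defb*, *Lcn*, *Wfdc*, *Spink* or *Pate*, except *Lcn2*, and in addition *Crisp1* to *Crisp4*, *Ces5a*, *Cst8*, *Cst11*, *Gpx5*, *Rnase9*, *Rnase10*, *Rnase12*, *Serpina1f*, *Serpina16* and *Cuzd1*. RNA was sequenced from 8 pairs of mouse testes at postnatal day 12 on a mixed strain background, 4 labelled wild type and 4 labelled *Morc2b*-/-. The *Morc2b*-/- allele lacks exon 2, with the entire coding region, in every cell of the animal. The accompanying series text calls the control group *Morc2b*+/-, and the sample labels, which were followed here, call it wild type. Each library came from 1 pair of testes, with no separation of cells, so a lower level can mean fewer cells of a type or less RNA per cell, and these cannot be told apart.

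The epididymis is the coiled duct in which sperm leaving the testis mature and are stored. Its epithelium secretes families of small proteins, many of them encoded in gene clusters, that coat the sperm surface, defend the duct against microbes and hold proteases in check. Beta-defensins (*Defb*) are short cationic antimicrobial peptides, and lipocalins (*Lcn*) carry small hydrophobic molecules. *Wfdc* genes encode whey acidic protein domain proteins and *Spink* genes encode Kazal-type serine protease inhibitors, while serpins (*Serpina1f*, *Serpina16*) and cystatin relatives (*Cst8*, *Cst11*) belong to other protease inhibitor families. *Pate* proteins are small secreted proteins with a Ly6-like fold. CRISP proteins bind to sperm. Several members of these families are also made inside the testis itself.

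Counts on transcripts ranged from 27144796 to 36941755 per library. Levels are given as CPM, which are counts relative to library size scaled by edgeR's TMM method, and libraries are named by their replicate number, always in the order 1 to 4. Counts of the targeted gene *Morc2b* were 428, 443, 24 and 1272 for the wild type libraries and 10, 10, 115 and 2 for the *Morc2b*-/- libraries, so wild type library 3 lay below *Morc2b*-/- library 3 (log2 fold change -4.09, standard error 1.21, adjusted p = 0.9998 from edgeR). Markers of Sertoli cells, the somatic cells of the seminiferous tubule, were present in every library, with 6 genes summing to 1294 to 1486 CPM in wild type and 1403 to 1603 CPM in *Morc2b*-/- testes. Wild type library 1 stood apart from all other libraries for 22 of the members described below but not for most others. Results that rest on it are given with and without it.

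The 110 members fell into very unequal groups. No reads were counted for 24 of them, 22 had 1 to 9 counts over the 8 libraries together, and 64 had 10 or more. Of these 64, 22 (34.4%) had over 80% of their CPM, summed over the 8 libraries, in wild type library 1 alone. Over all 17131 genes with as many counts, a single library held that share in 68 genes (0.397%), and wild type library 1 did so in 55 genes (0.321%). The 22 members made up 40.0% of the 55 genes. By the weaker measure of being highest in that library, 36 of the 64 members qualified, against 2690 of all genes (15.7%). The cut-off of 10 counts includes those of wild type library 1, for members and for all genes alike. Some members passed it only through that library, such as *Defb6* with 18 counts there and 0 elsewhere. The families were also chosen with earlier results of these data known, so these shares are a description and were not tested. Without wild type library 1, 4 members were held by a single library, namely *Crisp1*, *Spink8* and *Ces5a* by *Morc2b*-/- library 2 and *Defb33* by *Morc2b*-/- library 3.

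*Spink8*, a Kazal-type protease inhibitor, had 4329, 5, 0 and 5 counts in the wild type and 7, 224, 10 and 3 counts in the *Morc2b*-/- libraries. *Crisp1*, which encodes a secreted protein that associates with sperm in the epididymis, had 3096, 2, 0 and 1 counts in wild type and 1, 212, 9 and 0 counts in *Morc2b*-/- testes. *Ces5a*, a secreted carboxylesterase, had 1705, 1, 1 and 1 counts in wild type and 4, 60, 4 and 0 counts in *Morc2b*-/- testes. For these 3 genes wild type library 1 was highest, *Morc2b*-/- library 2 was next, and the other 6 libraries had at most 10 counts. The remaining 3 wild type libraries averaged 0.114 CPM for *Spink8*, 0.0349 CPM for *Crisp1* and 0.0346 CPM for *Ces5a*, which is below the *Morc2b*-/- means of 1.67, 1.51 and 0.467 CPM. The genotype with the higher mean thus changed when that 1 library was left out. The *Morc2b*-/- means rested in turn on *Morc2b*-/- library 2, and without it they were 0.205 CPM for *Spink8*, 0.0967 CPM for *Crisp1* and 0.0813 CPM for *Ces5a*.

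**Figure D1:**
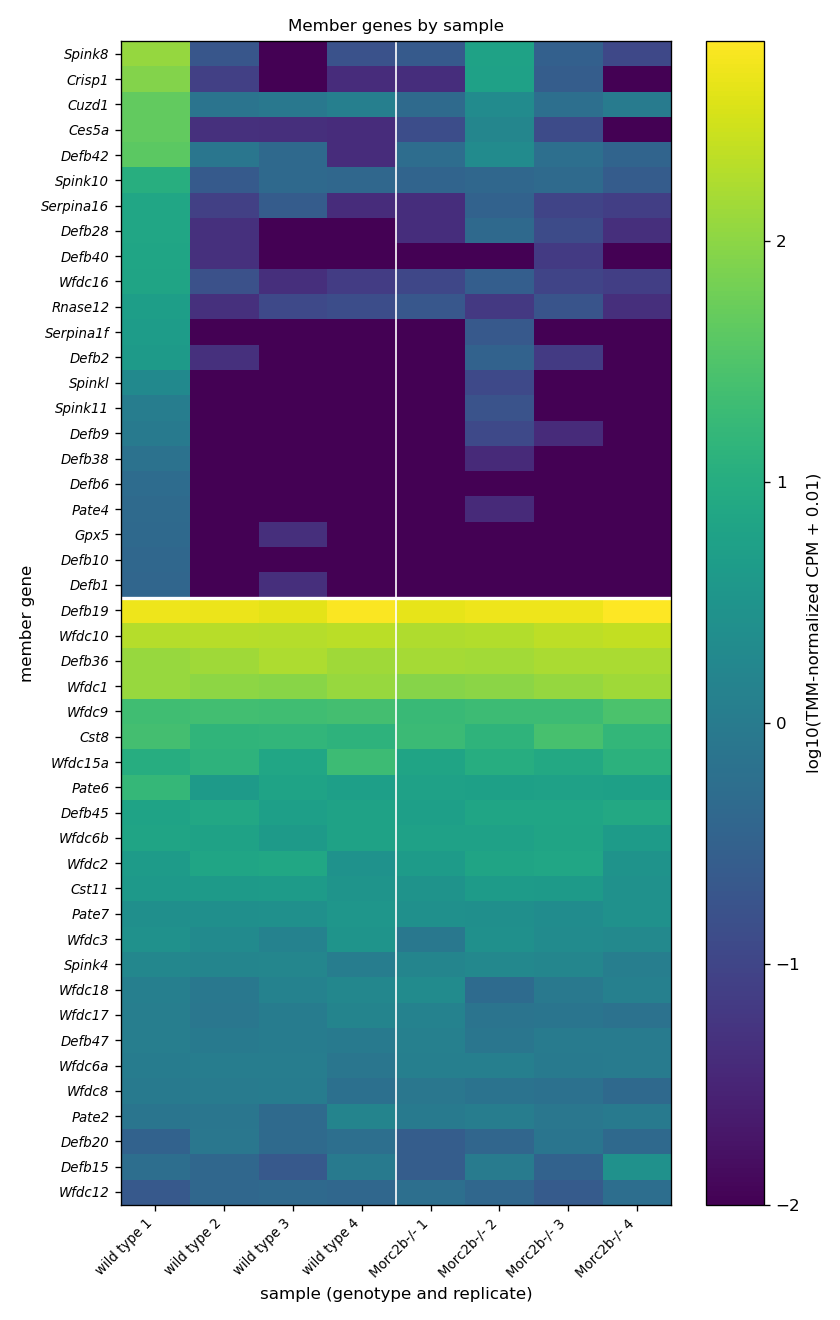
Level of the 22 members held by wild type library 1 (above the white line, ordered by its counts) and of the 24 other members that passed the low-count filter (below the line) in each of the 8 libraries. Colour is log10 of the TMM-normalized CPM plus 0.01, columns are libraries. The upper block is bright in wild type library 1 and weakly visible in *Morc2b*-/- library 2, whereas most of the lower block has a similar colour in every library.

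The promoters of a few members are shown to give the sequence next to the genes with the opposite behaviours, *Crisp1* and *Ces5a* from the group held by wild type library 1 and *Defb36* from the group present in every library. Each is the 250 bases before the RefSeq transcription start on the strand of the gene, from the GRCm38.p6 assembly, which is another build than the NCBI37/mm9 to which the reads were mapped. *Crisp1* lies at chr17:40319208-40319457 on the minus strand, *Ces5a* at chr8:93535841-93536090 on the minus strand, and *Defb36* at chr2:152604077-152604326 on the plus strand. Capitals mark matches on either strand to AGAACA, the half-site letters of androgen and glucocorticoid receptor binding (TGTTCT on the other strand), or to TATAAA, the TATA box letters.
Crisp1: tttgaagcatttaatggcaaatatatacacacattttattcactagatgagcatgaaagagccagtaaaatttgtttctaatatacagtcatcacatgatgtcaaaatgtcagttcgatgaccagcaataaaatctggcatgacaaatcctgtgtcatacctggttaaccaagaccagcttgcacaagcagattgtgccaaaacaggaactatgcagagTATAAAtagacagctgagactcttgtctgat
Ces5a: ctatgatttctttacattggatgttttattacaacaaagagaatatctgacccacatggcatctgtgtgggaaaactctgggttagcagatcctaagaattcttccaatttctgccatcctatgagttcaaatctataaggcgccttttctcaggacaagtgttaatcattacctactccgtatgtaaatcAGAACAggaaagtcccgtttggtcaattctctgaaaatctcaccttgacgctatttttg
Defb36: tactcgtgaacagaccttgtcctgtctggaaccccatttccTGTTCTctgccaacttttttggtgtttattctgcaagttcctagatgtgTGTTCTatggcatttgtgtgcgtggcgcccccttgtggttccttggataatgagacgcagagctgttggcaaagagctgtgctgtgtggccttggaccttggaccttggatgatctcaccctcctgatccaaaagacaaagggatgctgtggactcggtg

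Matches of the 2 motifs can overlap by 1 letter, and none of those printed did. AGAACA was found before 27 of the 77 members with a promoter in the table (35.1%) and before 4912 of all 27025 genes (18.2%). By pattern, it was found before 3 of the 14 members held by wild type library 1 and before 3 of the 17 with 10 or more counts in every library. TATAAA was found before 16 of the 77 members (20.8%) and 3872 of all genes (14.3%). By pattern, it was found before 1 of the 14 held members, which was *Crisp1*, and before 2 of the 17 counted at 10 or more in every library. A match is a string of letters and not a measured binding site.

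Beta-defensins were the largest family in the group held by wild type library 1, with 9 of 43 members. *Defb42* had 1496, 21, 12 and 1 counts in wild type and 16, 79, 20 and 10 counts in *Morc2b*-/- testes. *Defb28* had 259, 1, 0 and 0 counts in wild type and 1, 16, 4 and 1 counts in *Morc2b*-/- testes. *Defb40* had 256, 1, 0 and 0 counts in wild type and 0, 0, 2 and 0 counts in *Morc2b*-/- testes. All 3 defensins shared the high value of wild type library 1, and *Defb40* had no counts in *Morc2b*-/- library 2, where *Defb28* had 16. The remaining 6 were *Defb2* with 157 counts in wild type library 1, *Defb9* with 36, *Defb38* with 24, *Defb6* with 18, *Defb10* with 15 and *Defb1* with 14, and none of them had more than 12 counts in another library. *Defb33*, which was not in this group, had 30 counts in wild type library 1 and 39 in *Morc2b*-/- library 3, with 5 or fewer in the others.

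Among the protease inhibitors, the group held 4 of 13 *Spink* genes, 1 of 18 *Wfdc* genes and both serpins. *Spink10* had 385, 6, 12 and 13 counts in wild type and 11, 15, 16 and 7 counts in *Morc2b*-/- testes. *Wfdc16* had 245, 4, 1 and 2 counts in wild type and 3, 10, 3 and 2 counts in *Morc2b*-/- testes. *Serpina16* had 269, 2, 7 and 1 counts in wild type and 1, 12, 3 and 2 counts in *Morc2b*-/- testes. In these 3 genes all libraries other than wild type library 1 stayed at 16 counts or fewer. *Serpina1f* had 169 counts in wild type library 1, 8 in *Morc2b*-/- library 2 and 0 in the other 6 libraries. *Spinkl* had 73 and 4 counts and *Spink11* 40 and 6 counts in the same 2 libraries, again with 0 in the other 6. *Serpina1f* is listed under 2 transcripts, and the other 21 members of the group under 1.

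The group also included secreted enzymes and sperm-binding proteins. *Cuzd1*, a protein with CUB and zona pellucida domains, had 1707, 19, 24 and 38 counts in wild type and 14, 78, 20 and 30 counts in *Morc2b*-/- testes, so that, unlike *Crisp1*, it was counted in every library. *Rnase12*, a member of the ribonuclease A family, had 187 counts in wild type library 1 and at most 6 in the others. *Gpx5*, the glutathione peroxidase of the epididymis, had 16 counts in wild type library 1 and 1 count elsewhere, and *Pate4* had 17 and 1. Per kilobase of annotated exon, *Spink8* in wild type library 1 was at 148.6 CPM per kb and *Crisp1* at 59.6, compared with 1296 for *Defb19*, the member with the most counts in the series. On this scale the level of *Spink8* in that library lay between those of *Wfdc1*, at 102.3 CPM per kb, and *Defb36*, at 237 CPM per kb.

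The second library in this pattern was *Morc2b*-/- library 2. The 22 members together had 14513 counts in wild type library 1, which was 92.6% of all their counts, and 744 in *Morc2b*-/- library 2. In the other 6 libraries they had 56 to 100 counts. In CPM the sums were 395.6 and 20.1, against 1.93 to 2.86 in the others. The 2 libraries have similar depth, 36346836 and 36941755 counts, so their counts can be set side by side directly. Of the 13 members of the group with 100 or more counts in wild type library 1, *Morc2b*-/- library 2 was the next highest in 10. Of the 14 genes outside the families that met the same criteria, it was the next highest in 7.

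*Morc2b*-/- library 2 held 4.92% of the *Spink8* counts of both libraries (95% Clopper-Pearson interval 4.31 to 5.59), 6.41% for *Crisp1* (5.60 to 7.30) and 3.40% for *Ces5a* (2.60 to 4.35). The intervals of *Crisp1* and *Ces5a* do not overlap. *Defb42* had 5.02% (3.99 to 6.21), *Cuzd1* 4.37% (3.47 to 5.42) and *Defb28* 5.82% (3.36 to 9.28). *Defb40* had 0 of 256 counts in *Morc2b*-/- library 2, and its upper Clopper-Pearson limit of 1.43% lies below the intervals of those 6 genes. *Rnase12* had 1.06% (0.128 to 3.77). Not every share stands above the level of the other libraries: the 15 counts of *Spink10* in *Morc2b*-/- library 2 compare with up to 16 elsewhere outside wild type library 1, the 78 of *Cuzd1* with up to 38, and the 2 of *Rnase12* with up to 6. These intervals cover counting error only, and describe these libraries and not the genotypes.

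**Figure D2:**
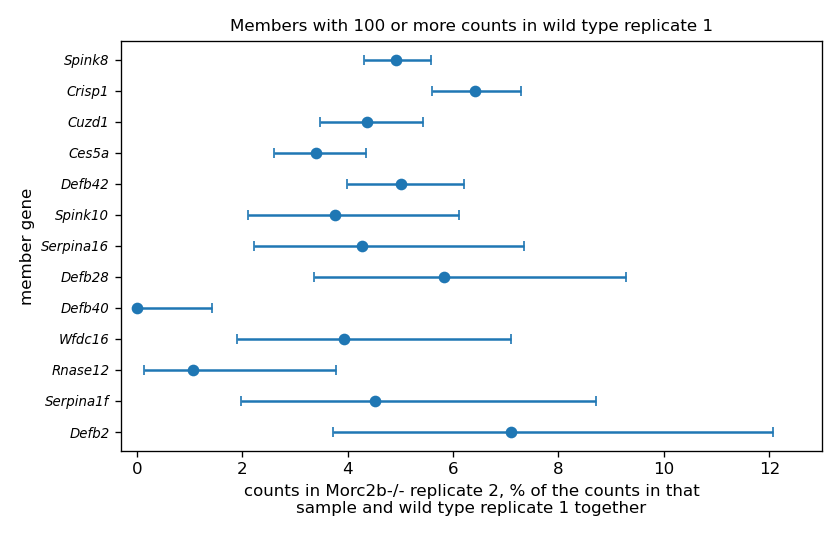
Counts in *Morc2b*-/- library 2 as a percentage of the counts in that library and wild type library 1 together, for the 13 members with 100 or more counts in wild type library 1. Points are the shares and bars the 95% Clopper-Pearson intervals, for counting error only. Apart from *Defb40* at 0% and *Rnase12* at 1.06%, the shares lie between 3.40% and 7.10%, and that of *Spink10* (15 counts) is at the level of the other libraries (up to 16 counts).

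The name epididymal was then compared with other genes of that tissue. Of 18 other epididymal genes, 8 had 10 or more counts in all and 3 of these were highest in wild type library 1. Only *Cd52*, a small glycoprotein of the sperm surface and of lymphocytes, was held by that library, with 2802 counts against 36 to 195 elsewhere. *Adam7* had 12 counts in wild type library 1 and at most 4 elsewhere, and *Spag11b*, *Bsph1*, *Bsph2* and *Teddm1a* had no counts. *Cst12* had 19982 to 30796 counts and *Eppin* 2877 to 6584 counts per library. The sum of the list, mostly *Cst12*, was 822 to 1045 CPM in wild type and 831 to 1088 CPM in *Morc2b*-/- testes. The 22 members are therefore described here as held by wild type library 1, with no cell type assigned to them.

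Other genes moved with the same library. Of 10 epithelial keratin, junction and duct genes, all 9 with 10 or more counts were highest in wild type library 1, against 15.7% of all genes. The list summed to 77.7 CPM there, compared with 15.1 to 33.4 CPM in the other wild type and 19.5 to 30.9 CPM in *Morc2b*-/- libraries. That library held 2 of them, *Krt8* and *Krt19*. Others were only slightly higher there, such as *Pax8* at 5.70 against 5.01 CPM in *Morc2b*-/- library 1 and *Cdh1* at 24.0 against 19.5 CPM in wild type library 3. *Krt8*, a keratin of simple epithelia, had 416 counts in wild type library 1 and 3 to 27 elsewhere, and *Krt19* had 213 and 0 to 10. *Hoxa11*, a posterior homeobox gene, had 132 counts there and at most 2 elsewhere. The 5 genes outside the families with the most counts in wild type library 1 among those it held were *Cd52*, *2300002M23Rik* (2147 counts), *Ptgs2* (1401 counts), *Pcp4* (1073 counts) and *Cwh43* (618 counts).

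Spermatid genes, which are expressed after meiosis, were also uneven, although the paper places the most advanced germ cells of day 12 testes at zygotene. Not all genes of the list followed its sum: *Spaca1* had 18 to 49 counts and *Akap4* 0 to 4 counts per library. The 8 genes, among them the transition proteins *Tnp1* and *Tnp2* and the protamines *Prm1* and *Prm2*, summed to 149.7 CPM in wild type library 1 and 304.1 CPM in *Morc2b*-/- library 3. They summed to 34.3 CPM in *Morc2b*-/- library 2, 18.0 CPM in *Morc2b*-/- library 1 and 1.98 to 3.43 CPM in the other 4 libraries. In *Morc2b*-/- library 3, where they were highest, the 22 members summed to 2.86 CPM. Of the 7 seminal vesicle genes, 2 were at 0, and the list summed to 2.46 to 4.14 CPM in wild type and 2.13 to 4.35 CPM in *Morc2b*-/- libraries. Whether such cells were present, and their part in the pattern of the members, was not tested.

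**Figure D3:**
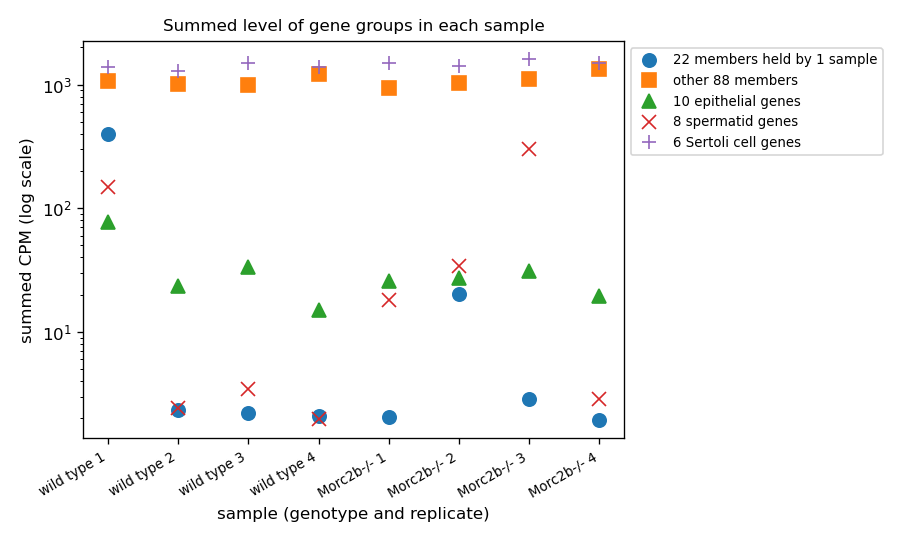
Summed CPM (log axis) of 5 groups of genes in each of the 8 libraries: the 22 members held by wild type library 1, the other 88 members, and the epithelial, spermatid and Sertoli cell lists. The 22 members reach 395.6 CPM in wild type library 1 and 20.1 CPM in *Morc2b*-/- library 2, while the other 88 members stay between 945 and 1326 CPM.

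A different set of members was counted in all libraries, with smaller differences between libraries than in the group held by wild type library 1. Apart from *Cuzd1*, 21 members had 10 or more counts in every library, and their coefficient of variation over the 8 libraries ranged from 10.6% to 56.8%, with a median of 17.0%. For the 24 tested members outside that group, the highest library was at a median of 1.78 times the lowest. Over 13449 tested genes this median was 1.47. The 2 sets were not matched for counts, and at low counts this ratio also widens through counting error. Whether the members were less even than other genes with as many counts was not tested. *Defb19*, a beta-defensin known from Sertoli cells, had 18732, 13075, 12250 and 20470 counts in wild type and 13639, 18855, 17453 and 19670 counts in *Morc2b*-/- testes. Wild type libraries averaged 518 ± 88.9 CPM and *Morc2b*-/- libraries 532 ± 101.1 CPM (SD, n = 4 each), with overlapping ranges. *Defb36*, its neighbour on chromosome 2, was at 144 ± 19.4 CPM and 157 ± 10.6 CPM (SD, n = 4 each). *Defb45*, between them, was at 6.39 ± 1.04 CPM and 6.74 ± 1.17 CPM, and *Defb47* at 1.04 ± 0.100 CPM and 1.03 ± 0.195 CPM. In each of these 4 defensins the values of the genotypes overlapped.

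The *Wfdc* family was mostly of this kind, since 12 of its 18 members passed the low-count filter and 1 was held by wild type library 1. *Wfdc10* had 7164, 5482, 5505 and 6826 counts in wild type and 5557, 7042, 7821 and 7214 counts in *Morc2b*-/- testes, or 202 ± 8.80 and 211 ± 31.3 CPM (SD, n = 4 each). *Wfdc1*, which encodes a secreted growth inhibitor, was at 109.6 ± 15.3 and 110.8 ± 21.3 CPM, and *Wfdc9* at 23.2 ± 1.17 and 22.3 ± 4.67 CPM. The genotypes overlapped in all 3. *Wfdc15a* was at 10.3, 13.2, 7.11 and 20.8 CPM in wild type and 6.50, 10.1, 8.11 and 12.5 CPM in *Morc2b*-/- testes. *Wfdc2*, an epithelial member also known as HE4, was at 4.53, 6.93, 7.64 and 2.86 CPM in wild type and 4.53, 6.60, 7.33 and 2.96 CPM in *Morc2b*-/- testes, so that libraries 2 and 3 of both genotypes were the high ones and library 4 the low one. The other 7 tested *Wfdc* genes, *Wfdc3*, *Wfdc6a*, *Wfdc6b*, *Wfdc8*, *Wfdc12*, *Wfdc17* and *Wfdc18*, had genotype means between 0.365 and 5.75 CPM. *Wfdc8* and *Wfdc6b* overlap on opposite strands in the annotation, and whether the counting used strand is not given in the sources used here.

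Of the cystatin relatives, *Cst8* (CRES, made in testis and epididymis) had 901, 400, 421 and 426 counts in wild type and 609, 504, 910 and 452 counts in *Morc2b*-/- testes. Wild type library 1 and *Morc2b*-/- library 3 were the highest, at 24.6 and 26.1 CPM, and the other 6 libraries lay between 13.4 and 19.7 CPM. *Cst11* was at 3.98 ± 0.563 CPM in wild type and 3.61 ± 0.801 CPM in *Morc2b*-/- testes (SD, n = 4 each). In the *Pate* family, *Pate6* had 606, 119, 175 and 166 counts in wild type and 181, 208, 200 and 165 counts in *Morc2b*-/- testes, so it was steady except for a high value in wild type library 1. *Pate7* was at 2.80 ± 0.464 and 2.52 ± 0.257 CPM and *Pate2* at 0.870 ± 0.447 and 0.944 ± 0.126 CPM. *Spink4* was at 1.51 ± 0.281 and 1.52 ± 0.275 CPM. *Pate2* has exons that overlap *Pate4* and other genes on the opposite strand.

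The genotypes were set against each other in edgeR by a quasi-likelihood test over all genes, with Benjamini-Hochberg adjustment. The low-count filter retained 13507 genes, of which 0 (0%) had an adjusted p-value under 0.05 and 249 (1.84%) had an unadjusted p-value under 0.05. DESeq2 called 1 gene, which was no member. Of the 27 members tested, 0 passed the adjusted threshold and 2 had an unadjusted p-value under 0.05, and the smallest adjusted p-value was 0.9998. Of their log2 fold changes (*Morc2b*-/- over wild type), 11 were above 0 and 16 below 0, with a median of -0.03 against 0.0022 over all genes tested. The genotypes overlapped in all 27 members, and they did not overlap in 174 of all tested genes (1.29%). At so small a share 27 genes can readily include 0, so no difference between the members and all genes can be read from this. Beyond 1 pair of testes per library the labels do not say how the males were related, and p-values measure the spread between these libraries.

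The members with an unadjusted p-value under 0.05 were *Cuzd1* and *Spink10*, both held by wild type library 1. The log2 fold change of *Cuzd1* was -3.55 (standard error 1.42, 95% interval -6.75 to -0.36, adjusted p = 0.9998 from edgeR), which was 0.19 without wild type library 1. For *Spink10* it was -2.98 (standard error 1.20, 95% interval -5.67 to -0.28, adjusted p = 0.9998 from edgeR), and 0.05 without that library. *Defb42*, the third tested member of the group, was at -3.53 (95% interval -7.24 to 0.17) and at 1.16 without wild type library 1. DESeq2 gave no p-value for these 3 genes. *Spink8*, *Crisp1*, *Ces5a*, *Defb28*, *Defb40*, *Wfdc16* and *Serpina16* did not pass the filter. Without a filter, their log2 fold changes from edgeR were -4.11, -3.77, -4.58, -3.46, -6.55, -3.68 and -3.84, each with an adjusted p-value of 0.999. Without wild type library 1 the remaining wild type mean was below the *Morc2b*-/- mean in all 7, for example 0.0122 against 0.153 CPM for *Defb28*, 0.0122 against 0.0143 CPM for *Defb40*, 0.0818 against 0.131 CPM for *Wfdc16* and 0.118 against 0.128 CPM for *Serpina16*. These differences were not tested, and with *Morc2b*-/- library 2 left out as well that of *Serpina16* turned again, to 0.118 against 0.0623 CPM. Several of these means rest on very few reads. Without wild type library 1, *Defb40* had 1, 0 and 0 counts in wild type and 0, 0, 2 and 0 counts in *Morc2b*-/- testes. *Serpina16* had 2, 7 and 1 against 1, 12, 3 and 2 counts, so the shared direction of the 7 is a description only.

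The steadier members set narrower limits on a genotype difference. The 95% interval of the log2 fold change was -0.30 to 0.38 for *Defb19*, -0.09 to 0.35 for *Defb36*, -0.16 to 0.28 for *Wfdc10*, -0.31 to 0.34 for *Wfdc1* and -0.36 to 0.25 for *Wfdc9*. It was -0.41 to 0.70 for *Cst8* and -0.58 to 0.30 for *Cst11*. Among the 24 tested members outside the group, log2 fold changes ranged from -0.51 for *Wfdc8* to 1.05 for *Defb15*. *Defb15* had 20, 11, 6 and 29 counts in wild type and 8, 37, 11 and 82 counts in *Morc2b*-/- testes, and without *Morc2b*-/- library 4 its log2 fold change was 0.02. *Wfdc15a* was at -0.47 (95% interval -1.19 to 0.26), and at -0.14 without wild type library 4. *Pate6* was at -0.50, and at 0.12 without wild type library 1.

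**Figure D4:**
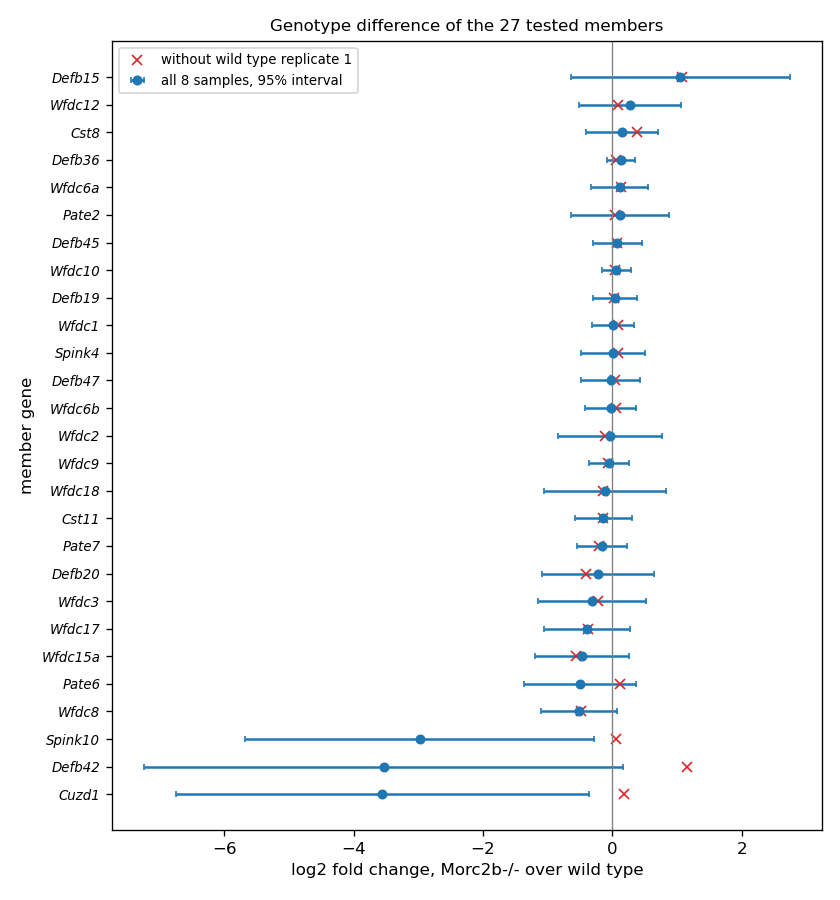
Log2 fold change in *Morc2b*-/- over wild type testes for the 27 members tested with edgeR. Circles and bars are the estimate and 95% interval from all 8 libraries, and crosses are the estimate without wild type library 1. *Cuzd1*, *Defb42* and *Spink10* are far below 0 with all libraries and above 0 without wild type library 1, and the other 24 estimates lie between -0.51 and 1.05.

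Lipocalins had few counts. None of the 9 *Lcn* genes passed the filter, 0 were held by a single library, and the highest count was that of *Lcn12*, with 32 counts in wild type library 1 and at most 3 elsewhere. *Lcn8* had 6 counts in that library. *Lcn5* and *Lcn9* were listed at 0 in every library. Of the 24 members at 0, 18 are listed under 1 transcript, for which 3 counts would be 0.0812 to 0.111 CPM. The other 6, *Crisp2*, *Crisp4*, *Lcn5*, *Rnase10*, *Spink2* and *Wfdc15b*, are listed under several transcripts. Reads that fell on several listed transcripts were tallied as ambiguous and not counted, so a 0 for these 6 is no measurement of their expression, and nor are the 2 counts of *Lcn6*, which also has 2 transcripts. The counts of *Wfdc8*, listed under 3 transcripts, and of *Wfdc6a*, *Serpina1f* and *Defb41*, each under 2, likewise leave out such reads. *Crisp2* and *Spink2* are known from germ cells of the testis.

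Members of opposite patterns shared some of the gene clusters. Positions in the NCBIM37 (mm9) annotation were found for 107 members. The beta-defensin cluster of chromosome 2, from 152284791 to 152448789, holds 11 members, of which 3 had 10 or more counts in every library and 1 was held by wild type library 1. There, *Defb28* (152343991 to 152347183, plus strand, 3 exons) lies at lower coordinates than *Defb19* (152401822 to 152406048, minus strand, 2 exons), *Defb45* (152418927 to 152425135, minus strand) and *Defb36* (152430063 to 152438465, plus strand). In the *Wfdc* cluster of the same chromosome, from 164002063 to 164513206, 7 of 13 members had 10 or more counts in every library, and the member held by wild type library 1, *Wfdc16* (164460207 to 164464302, minus strand), has as its next member *Wfdc9* (164475131 to 164482083, minus strand). The lipocalin cluster, from 25346365 to 25681057 with 8 members, had neither kind.

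The defensin clusters of chromosome 8 had the other balance. Of 14 members from 18974940 to 19497775, 3 were held by wild type library 1, among them *Defb40* (18974940 to 18978256, minus strand, 2 exons). Of 9 members from 22887071 to 23059322, 4 were, and 0 members of either cluster had 10 or more counts in every library. *Defb42* (63665828 to 63676986, plus strand, 4 exons) and *Defb47* (63616939 to 63619903, plus strand, 2 exons), with opposite patterns, share a cluster of 5 members on chromosome 14. *Spink8* (chromosome 9, 109714794 to 109729147, plus strand, 5 exons) and *Cuzd1* (chromosome 7, 138452069 to 138465806, minus strand, 9 exons) lie apart from other members. *Crisp1* (chromosome 17, 40430707 to 40456156, minus strand, 8 exons) shares exon sequence with a *Crisp3* transcript in the annotation, and *Crisp3* had at most 1 count in any library.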

How the data were processed

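RNA was sequenced from 8 pairs of testes, 4 wild type and 4 *Morc2b*-/-, as stranded mRNA libraries. Mapping by the authors used Tophat and NCBI37/mm9 after adapter trimming, and the deposited values are raw counts of reads for RefSeq transcripts. How reads were counted, with which strand setting and annotation release, is not given in the sources used here. Of 35819 listed transcripts, 35522 were matched by accession to a symbol in RefSeq's GRCm38.p6 table, and counts were summed by symbol. The other 297 held 0.484% of the counts. Tally lines were left out of library sizes.

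Genotypes were compared in R 4.3.3 with edgeR 4.0.16 (TMM, filterByExpr, estimateDisp, glmQLFit, glmQLFTest, genotype only), which replaced the FPKM comparison of the study because the deposited values are counts. The outcomes differ, since the study did name genes at an adjusted p-value under 0.05, *Crisp1* among them. It also checked some of its genes by real-time PCR in independent testes. Benjamini-Hochberg adjustment was over all tested genes, at 0.05. The edgeR procedure was also run on simulated counts, with 200 genes changed by a log2 fold change of 2. No simulated library was set apart from its group, so that run does not cover a library such as wild type library 1. A gene was called held by a library with more than 80% of its summed CPM and at least 10 counts in all. Alternatives were RLE, DESeq2 1.42.0, other filters, robust empirical Bayes, the replicate number as a block and leaving out each sample. Leaving out wild type library 1 and *Morc2b*-/- library 2 together was added after seeing the data.

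The members and lists were chosen with earlier results of these data known. Genes named are 4 markers, *Defb28* and *Wfdc16*, every member that passed the filter, the 20 members with the largest count in a sample, 5 genes outside the families and *Morc2b*. Others that are named (the rest of the 22 members held by wild type library 1, *Defb33*, *Lcn* genes, members at 0 and single marker genes) were chosen after their values were seen. The lists also covered Leydig cells, germ cells, macrophages and receptors, whose summed CPM ranged over 119 to 650, 960 to 1389, 155 to 230 and 290 to 327. Figures were drawn with matplotlib 3.10.9.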

Additional observations from a re-analysis of the deposited data

Results flagged for a closer look

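In 68 groups of 4 libraries (34 named members in each genotype), the highest or lowest library was set against Dixon's 95% critical value for its gap to the nearest other, which chance passes in about 1 group in 20. It was passed in 21 groups, 13 of them through wild type library 1 and 5 through *Morc2b*-/- library 2. Since 20 of the named members were chosen for a large count in any 1 library, a high value of wild type library 1 was favoured by the choice, and the number of groups cannot be read against that chance rate. For *Spink8*, *Crisp1*, *Ces5a*, *Defb28*, *Defb40*, *Wfdc16* and *Serpina16*, which failed the filter on low counts, the values are a description.

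Wild type library 1 was apart as the highest wild type library for *Spink8* at 118 CPM, *Crisp1* at 84.4, *Cuzd1* at 46.5, *Ces5a* at 46.5, *Defb42* at 40.8, *Cst8* at 24.6, *Pate6* at 16.5, *Spink10* at 10.5, *Serpina16* at 7.33, *Defb28* at 7.06, *Defb40* at 6.98 and *Wfdc16* at 6.68 CPM. For *Wfdc12* it was apart as the lowest, at 0.218 CPM. *Morc2b*-/- library 2 was apart as the highest of its genotype for *Spink8* at 6.06, *Crisp1* at 5.73, *Defb42* at 2.14, *Ces5a* at 1.62 and *Wfdc16* at 0.270 CPM.

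The remaining 3 were *Defb40* in *Morc2b*-/- library 3 at 0.0573 CPM, which is 2 counts against 0 in the others, *Wfdc17* in *Morc2b*-/- library 1 at 1.36 CPM, and *Wfdc6a* in wild type library 4, the lowest, at 0.786 CPM.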

How the results depend on the processing

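No member reached an adjusted p-value under 0.05 in edgeR under any alternative or in DESeq2. Over all genes, DESeq2 called 1, and edgeR 0 under every alternative. The count of members held by 1 library was 22 with RLE or unscaled CPM, 13 with at least 100 counts, and 4 to 23 with 1 library left out, the 4 being without wild type library 1. Members tested numbered 69 in DESeq2 and 86 without a filter, since low genes then enter. Genes at an unadjusted p under 0.05 numbered 422 without a filter, 572 with the replicate number as a block, and 204 to 504 with 1 library left out. Members at that threshold numbered 12 without a filter, 1 with at least 10 counts in every sample, 0 with robust empirical Bayes, 1 with the replicate block, 1 without wild type library 1 and *Morc2b*-/- library 2 together, and 0 to 5 with 1 library left out. Correlations of same-numbered libraries' deviations were -0.16, 0.24, -0.32 and 0.45, with no common sign. Whether same-numbered libraries share more than a number is not settled by these values.

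With both of those libraries out, signs turned for *Defb42* (0.25), *Defb47* (0.14), *Pate2* (-0.054), *Pate6* (0.12), *Wfdc18* (0.12) and *Wfdc6b* (0.039). With 1 library left out, 10 of 27 members kept the sign of their log2 fold change. The others ranged from -4.17 to 0.19 (*Cuzd1*), -4.44 to 1.16 (*Defb42*), -3.35 to 0.055 (*Spink10*), -0.71 to 0.12 (*Pate6*), -0.056 to 0.38 (*Cst8*), -0.10 to 0.16 (*Defb19*), -0.57 to 0.027 (*Defb20*), -0.024 to 0.19 (*Defb45*), -0.14 to 0.085 (*Defb47*), -0.089 to 0.52 (*Pate2*), -0.11 to 0.13 (*Spink4*), -0.11 to 0.10 (*Wfdc1*), -0.029 to 0.13 (*Wfdc10*), -0.56 to 0.15 (*Wfdc18*), -0.25 to 0.17 (*Wfdc2*), -0.15 to 0.068 (*Wfdc6b*) and -0.21 to 0.024 (*Wfdc9*). For the first 4, of the libraries left out singly, only the loss of wild type library 1 turned the sign. The cause was not tested. Members with fewer than 10 counts in all gave no measurable genotype difference, and for those with several listed transcripts depth is not the only limit, since reads on more than 1 of them were not counted.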

Other observations

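Outside the families, other epithelial and patterning genes were held by wild type library 1, named here after their values were seen. The basal cell keratin *Krt5* had 198 counts there and at most 1 in any other library, and *Krt15* had 51 and 0. The posterior homeobox gene *Hoxa10* had 13 counts there and at most 1 elsewhere. The tight junction gene *Cldn8* had 270 counts there, 12 in *Morc2b*-/- library 2, 1 in *Morc2b*-/- library 3 and 0 in the other 5 libraries. In *Morc2b*-/- library 2, *Krt5* had 1 count.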
